A study of Mus musculus with 2 samples.

Results

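The genes described here encode the protein parts of the spliceosome and the SR and hnRNP proteins that bind pre-mRNA around it. They were chosen by symbol, as the rows of the deposited expression table whose name begins with Snrp, Snrnp, Sf3a, Sf3b, U2af, Prpf, Srsf or Hnrnp, or is Sf1 or one of Lsm1 to Lsm8. The rule found 80 of the 11262 genes in the table and used no measured value.

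A spliceosome is built anew on each intron from small nuclear ribonucleoproteins (snRNPs), each a short nuclear RNA wrapped in proteins. The U1 snRNP pairs with the 5′ splice site, SF1 and U2AF mark the branch point and the 3′ splice site, the U2 snRNP replaces SF1 at the branch point, and the U4/U6.U5 tri-snRNP then joins and is remodelled into the catalytic machine. SR proteins mostly favour the use of nearby exons, and hnRNP proteins coat nascent transcripts and often act in the opposite way. The fully grown oocyte is transcriptionally silent and passes a store of such mRNAs to the embryo, so transcripts in a polar body and in the zygote share that maternal source.

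The study asked how the mRNA content of the second polar body (PB2), the small cell extruded when the egg completes meiosis after fertilisation, differs from that of the zygote. Both groups came from untreated C57BL/6 mouse embryos (C57BL/6N in the study's methods) that were collected from the oviduct, kept in culture and taken at the late 1-cell stage. The zona pellucida had been removed with acid Tyrode's solution and the PB2s parted from the zygotes in trypsin by pipetting, so both groups share these treatments and both cells were handled alike. The PB2s and the zygotes were pooled by kind, and polyA RNA was amplified as full-length cDNA into 1 library per kind.

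With 1 library per group there was no replicate error and no test, and every difference below describes these 2 libraries. Levels are in TPM (length-scaled shares of the sequenced transcripts), can be compared between genes and were deposited to 1 decimal. TPM keep no depth, so the counting error behind each value is unknown. Differences are log2 ratios of PB2 over zygote after adding 1 TPM to both, and genes were compared where either library reached 1 TPM. A gene with a log2 ratio of 1 or more is called PB2-high, one of -1 or less zygote-high, each a 2-fold gap. Where a pair of levels is given without its libraries, the zygote comes first. TPM are shares of a library, so a smaller amount of RNA per PB2 cannot be told apart from fewer or smaller cells in the pool.

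Both libraries carried oocyte markers. All 14 oocyte genes on a marker list had a row, with levels from 5.9 to 22562 TPM and a median log2 ratio of 0.02. Only 5 of 14 cumulus and granulosa genes had a row, and of the 4 compared none was 2-fold apart after adding 1 TPM. Star, at 0.3 TPM in the zygote against 1.4 TPM in PB2, and Cyp11a1, at 0.0 and 0.8 TPM, were too low to read a fold. The summed level of the 5 was 81.7 TPM in the zygote against 84.8 TPM in PB2, most of it Cyp19a1. Over all 10645 genes compared the median log2 ratio was 0.21, that is, the typical gene was somewhat higher in PB2, and the values for splicing genes are best read against that shift.

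The sequences that open the results are the starts of 7 coding regions, the first 90 bases from the start codon, taken from the GENCODE M21 annotation of GRCm38 (mm10). The first 5 are U2 snRNP genes, shown because subunits of that one particle lay at both ends of the comparison. The last 2 are the members with the highest and the lowest log2 ratio. Capitals mark the start codon.
Sf3a2: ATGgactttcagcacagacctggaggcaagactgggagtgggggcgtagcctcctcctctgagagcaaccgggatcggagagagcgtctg
Sf3b2: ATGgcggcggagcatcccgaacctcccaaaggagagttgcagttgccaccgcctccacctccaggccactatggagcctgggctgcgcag
Sf3a3: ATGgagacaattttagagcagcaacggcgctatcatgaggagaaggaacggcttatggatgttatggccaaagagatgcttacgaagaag
Sf3b6: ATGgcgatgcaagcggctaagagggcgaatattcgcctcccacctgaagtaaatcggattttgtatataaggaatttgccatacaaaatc
Snrpa1: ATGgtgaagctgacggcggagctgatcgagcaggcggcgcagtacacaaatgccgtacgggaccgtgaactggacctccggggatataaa
Hnrnpab: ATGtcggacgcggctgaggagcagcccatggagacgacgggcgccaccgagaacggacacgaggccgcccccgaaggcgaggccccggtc
Prpf39: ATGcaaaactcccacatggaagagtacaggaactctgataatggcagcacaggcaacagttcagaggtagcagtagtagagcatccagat

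These genes differ in base composition, which moved with the log2 ratio over the whole table. The longest protein-coding transcript was 62.2% G and C for Sf3a2 (chr10:80798198-80804924, plus strand, 9 exons) and 54.3% for Sf3b2 (chr19:5273932-5295455, minus strand, 21 exons). It was 49.8% for Sf3a3 (chr4:124714776-124732460, plus strand, 17 exons), 44.6% for Sf3b6 (chr12:4817544-4827659, plus strand, 4 exons) and 50.4% for Snrpa1 (chr7:66059003-66074587, plus strand, 9 exons). Hnrnpab (chr11:51600100-51606847, minus strand, 7 exons) stood at 49.9%, and Prpf39 (chr12:65036333-65063386, plus strand, 14 exons) at 37.0%, among the lowest of all members.

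Nearly all members were present in both libraries. At least 1 TPM was reached by 79 of the 80 members in PB2 and by 78 in the zygote. Together the members held 9991 TPM in the zygote, 1.08% of the table, and 7746 TPM in PB2, 0.862% of it. The load was uneven, as the 6 most abundant in the zygote, Snrpd1, Snrpe, Snrpg, Hnrnpc, Snrnp27 and Lsm7, made up 59.2% of the members' TPM in the zygote and 52.9% in PB2. The order of the members was much alike in the 2 libraries, with a Spearman correlation of 0.90 over 79 genes, beside 0.91 over all genes with a transcript model, both given as descriptions.

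**Figure D1:**
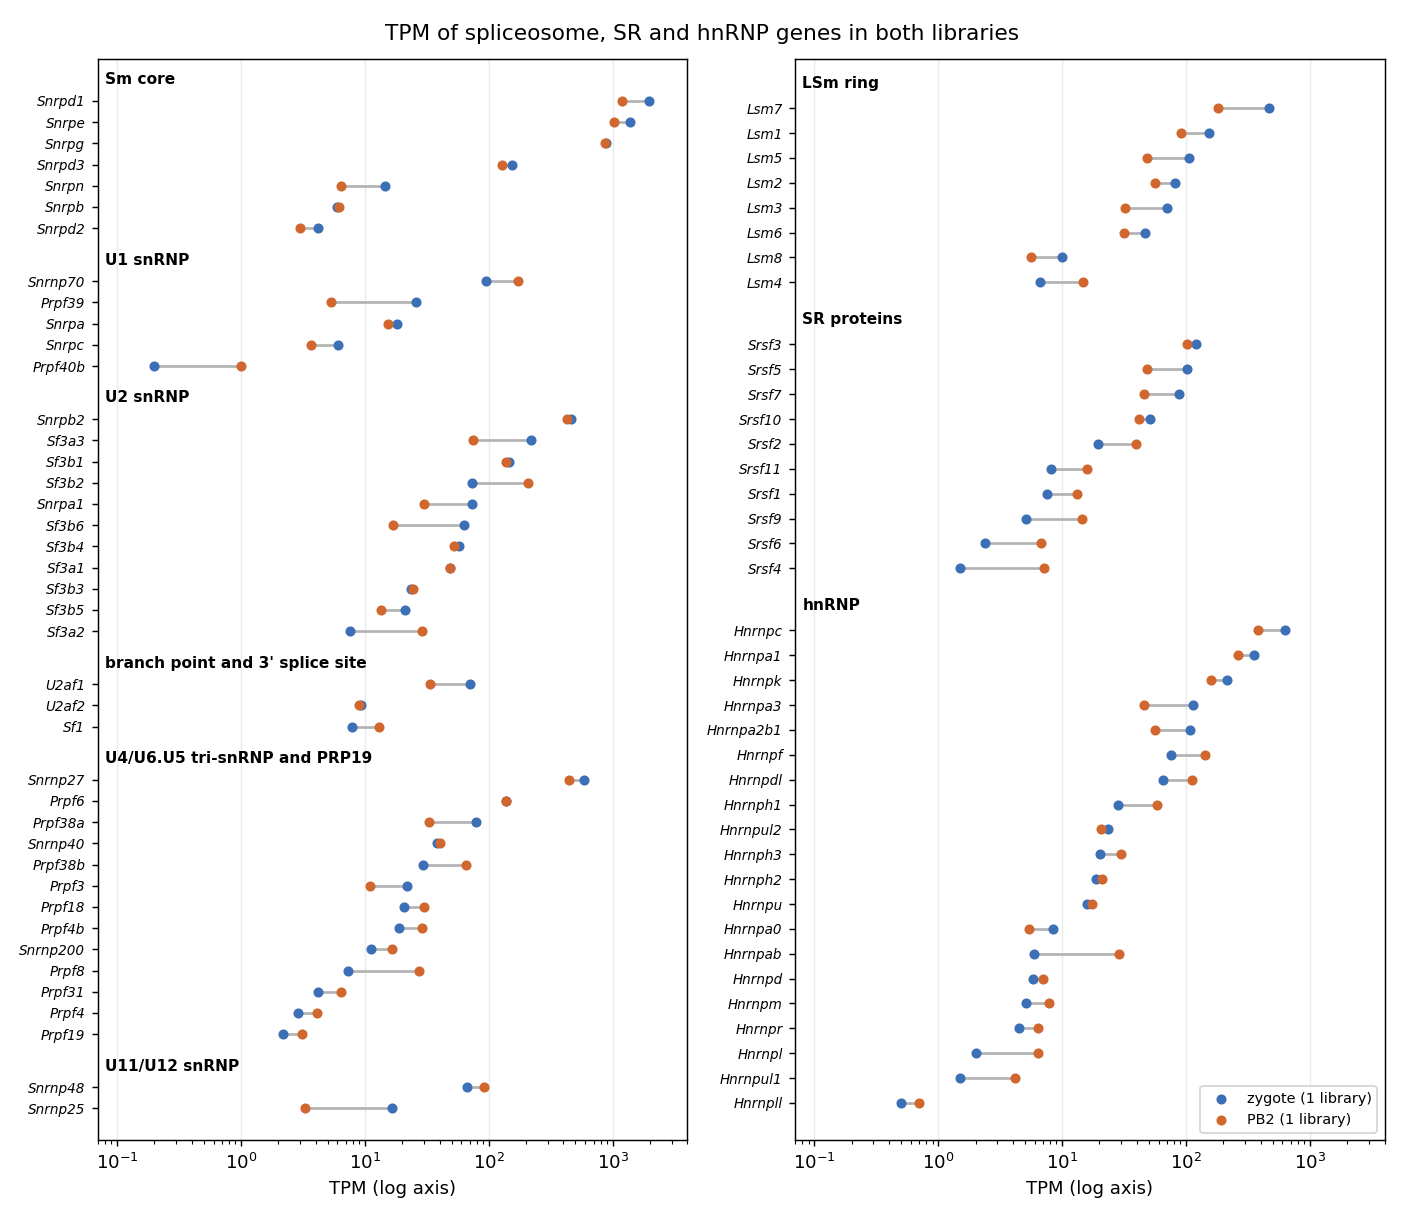
TPM of 79 of the 80 members in the zygote library (blue) and the PB2 library (orange) on a log axis, grouped by subcomplex and ordered by zygote level; a line joins the 2 values of a gene. The Sm core spans from 4.2 to 1959 TPM in the zygote, and among SR proteins the 4 most abundant lie lower in PB2 while the other 6 lie higher.

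As a set the members were split in both directions. Of the 79 compared, 12 (15.2%) were PB2-high, beside 18.9% of all genes compared. Another 13 (16.5%) were zygote-high, beside 8.09% of all genes. The remaining 54 lay between, and the median log2 ratio was -0.01, with a range from -2.08 to 2.11. When the log2 ratios were centred on the median of all genes, the split became 7 PB2-high and 16 zygote-high, beside 13.0% and 12.1% of all genes.

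**Figure D2:**
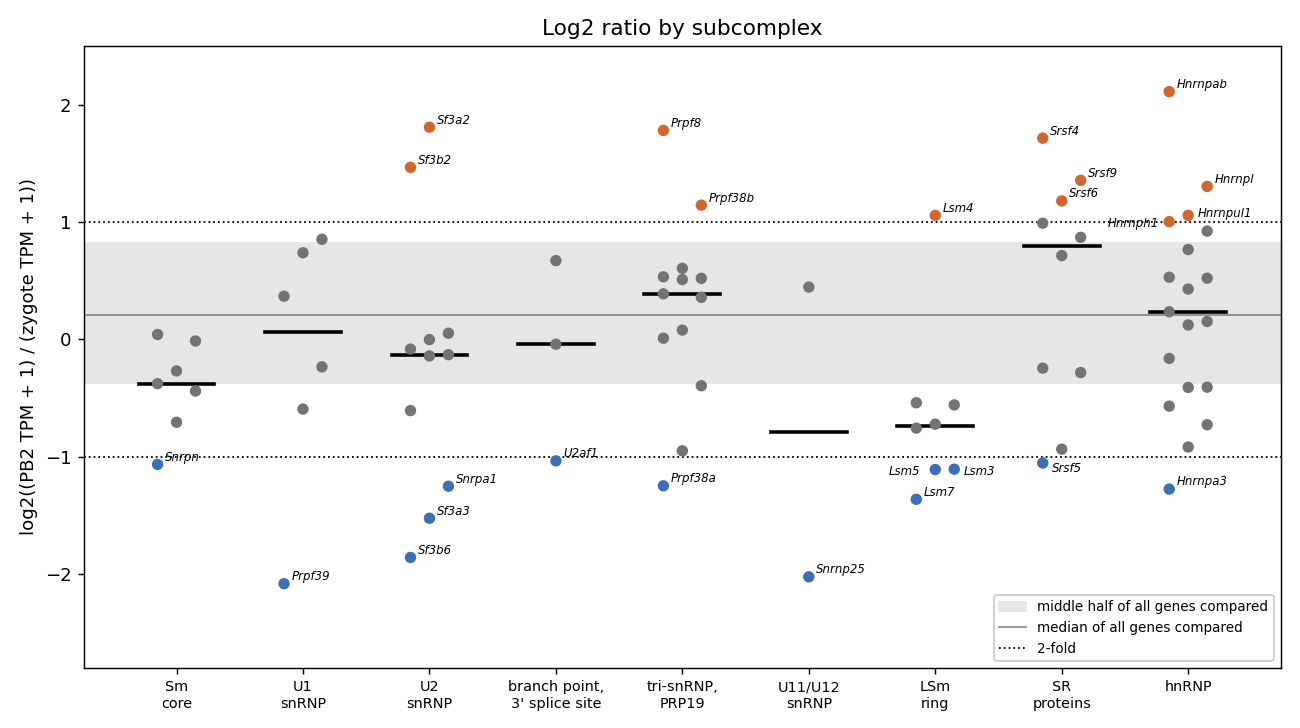
Log2 ratio of PB2 over zygote (1 TPM added to both) for the 79 members compared, by subcomplex; bars are medians, the grey band is the interquartile range of all 10645 genes compared and dotted lines mark 2-fold. The LSm ring has the lowest median of the subcomplexes with more than 2 genes, at -0.74, and the SR proteins the highest, at 0.79.

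The Sm proteins form the ring that binds the RNA of the U1, U2, U4 and U5 snRNPs. Of the 7 Sm genes in the table, 6 were lower in PB2 than in the zygote, with a median log2 ratio of -0.38. Of the 7, 1 (14.3%) was zygote-high, beside 8.09% of all genes. Snrpd1, the most abundant member in both libraries, was at 1959 TPM in the zygote against 1199 TPM in PB2, for a log2 ratio of -0.71. Snrpe stood at 1382 TPM in the zygote against 1017 TPM in PB2, and Snrpg at 881 and 872 TPM in the same order. These 3 encode the D1, E and G proteins of the ring and were far above the rest of it. Snrpd3 was at 154 TPM in the zygote against 128 TPM in PB2, Snrpb at 6.0 and 6.2 TPM, and Snrpd2 at 4.2 and 3.0 TPM. One copy of each protein is needed per ring, yet the mRNA levels of these 6 genes spanned 466-fold in the zygote and 399.7-fold in PB2. Snrpe, Snrpg, Snrpd1 and Snrpd2 share identical 50-base stretches with other genes over 20.8%, 18.6%, 13.8% and 11.7% of their transcripts, so this span is uncertain. The shares for Snrpd3 and Snrpb were 5.46% and 0.09%. Snrpf, which encodes the remaining ring protein, was not analysed here.

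Snrpb and Snrpn encode near-identical proteins, SmB and SmN, the latter from an imprinted gene best known from neurons. Snrpn was at 14.5 TPM in the zygote against 6.4 TPM in PB2, for a log2 ratio of -1.07, whereas Snrpb had a log2 ratio of 0.04. Snrpn was thus the higher of the pair in the zygote and level with Snrpb in PB2. The Snrpn transcript overlaps that of Snurf on the same strand and shares identical 50-base stretches with other genes over 26.2% of its length, so its value is uncertain.

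Among the 6 U1 snRNP genes, 3 were higher and 3 lower in PB2, with a median log2 ratio of 0.07. Snrnp70, whose product U1-70K holds the U1 RNA, was at 95.5 TPM in the zygote against 173 TPM in PB2, for a log2 ratio of 0.85. Snrpa and Snrpc encode the A and C proteins of U1, which bind its RNA and its 5′ end, and stood at 18.3 and 6.1 TPM in the zygote against 15.4 and 3.7 TPM in PB2. The 3 genes specific to the U1 particle thus lay on both sides of 0, none past 2-fold. With the trend on GC content over all genes removed, all 3 lay below 0. Snrnp70 then came to -0.04, Snrpa to -1.07 and Snrpc to -0.75. Prpf39, an alternative splicing factor of the U1 snRNP, was at 25.7 TPM in the zygote against 5.3 TPM in PB2. At -2.08 this was the lowest log2 ratio of all members, 4.85 times as much in the zygote before adding 1 TPM. Its transcript shares 12.5% of its length with Fkbp3, encoded on the opposite strand, and without strand in the counting the reads of the overlap cannot be assigned.

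Prpf40b, a further gene of this group, was at 0.2 TPM in the zygote against 1.0 TPM in PB2, too low to read a fold from values kept to 1 decimal.

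The U2 snRNP had the widest range of log2 ratios of any subcomplex, from -1.86 to 1.81. Of its 11 genes, 2 (18.2%) were PB2-high and 3 (27.3%) zygote-high, beside 18.9% and 8.09% of all genes. The U2 median was -0.13. SF3A, a heterotrimer that docks on the U2 particle, had 1 PB2-high, 1 zygote-high and 1 equal gene. Sf3a2 was at 7.6 TPM in the zygote against 29.1 TPM in PB2, for a log2 ratio of 1.81. Sf3a3 was at 218 TPM in the zygote against 75.1 TPM in PB2, for a log2 ratio of -1.53. Sf3a1 was at 48.5 TPM in the zygote against 48.4 TPM in PB2. Sf3a3 exceeded Sf3a2 28.7-fold in the zygote and 2.58-fold in PB2, so the 3 transcripts were closer to each other in PB2. Sf3a2 shares 19.5% of its transcript with other genes, mostly with Plekhj1 on the opposite strand, and Sf3a3 shares 2.71%.

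**Figure D3:**
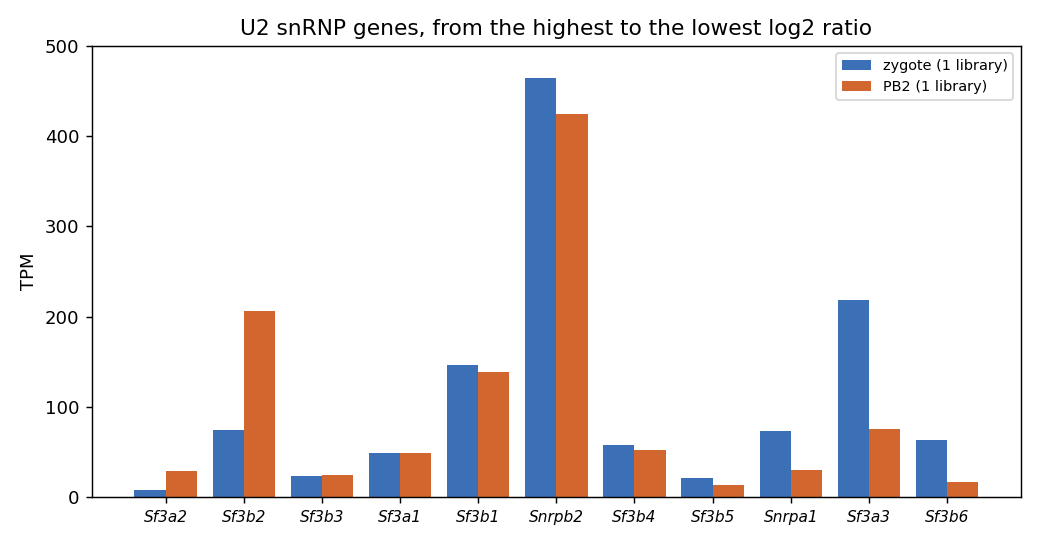
TPM of the 11 U2 snRNP genes in the zygote library (blue bars) and the PB2 library (orange bars), from the highest to the lowest log2 ratio. Sf3a2 and Sf3b2 are higher in PB2, Snrpa1, Sf3a3 and Sf3b6 are higher in the zygote, and Sf3b3, Sf3a1, Sf3b1, Snrpb2 and Sf3b4 are close to equal.

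SF3B, the larger assembly that grips the branch point helix, was spread in the same manner. Sf3b2 was at 73.8 TPM in the zygote against 206 TPM in PB2, for a log2 ratio of 1.47. Sf3b6, which encodes the p14 protein that lies by the branch point adenosine, was at 63.6 TPM in the zygote against 16.8 TPM in PB2, for a log2 ratio of -1.86. Sf3b1, the scaffold of SF3B and a gene often mutated in blood cancers, was nearly equal, with 147 TPM in the zygote against 138 TPM in PB2. Sf3b3 was at 23.7 and 24.6 TPM, and Sf3b4, which shares stretches over 51.2% of its length, at 57.6 and 52.1 TPM. Sf3b5, a small subunit, was at 21.1 TPM in the zygote against 13.5 TPM in PB2. The span between the highest and lowest of these 6 genes was 6.95-fold in the zygote and 15.2-fold in PB2, with Sf3b2 the highest and Sf3b5 the lowest in PB2. The seventh subunit is encoded by Phf5a, whose symbol falls outside the rule. It was the most abundant, with 1453 TPM in the zygote against 824 TPM in PB2, for a log2 ratio of -0.82, and with it the span was 68.9-fold in the zygote and 61.0-fold in PB2.

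Snrpa1 and Snrpb2 encode the partner proteins A′ and B″ of U2, which sit together on a stem loop of the U2 RNA. Snrpa1 was at 73.1 TPM in the zygote against 30.1 TPM in PB2, for a log2 ratio of -1.25. Snrpb2, the highest of the U2 genes, was at 465 TPM in the zygote against 424 TPM in PB2, for a log2 ratio of -0.13. The partners therefore differed in both level and ratio.

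At the branch point and 3′ splice site the 3 genes had a median log2 ratio of -0.04. Sf1, whose product first recognises the branch point, was at 7.8 TPM in the zygote against 13.0 TPM in PB2, for a log2 ratio of 0.67. U2af2, the large U2AF subunit that binds the polypyrimidine tract, was at 9.3 and 9.0 TPM. U2af1, the small subunit that reads the terminal AG, was at 70.2 TPM in the zygote against 33.7 TPM in PB2, for a log2 ratio of -1.04. The small subunit was the more abundant transcript of the heterodimer in both libraries, but 59.4% of its transcript lies in stretches shared with other genes, most with the predicted gene Gm10232, and 29.9% of the U2af2 transcript is shared too. U2af1l4, a relative of U2af1, was not analysed here.

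Of the 13 tri-snRNP and PRP19 genes, 10 had a log2 ratio above 0 and 3 below, with a median of 0.39, beside 0.21 for all genes. The median came to 0.037 with the length trend removed. Prpf8, the large U5 protein that cradles the catalytic core, was at 7.3 TPM in the zygote against 27.5 TPM in PB2, for a log2 ratio of 1.78. Snrnp200, the helicase that unwinds U4 from U6, was at 11.1 TPM in the zygote against 16.5 TPM in PB2. Prpf6, which bridges U5 and U4/U6, was at 138 TPM in the zygote against 139 TPM in PB2. U5 components were therefore unequal. Of U5 proteins outside the symbol rule, the GTPase gene Eftud2 stood at 3.8 TPM in the zygote against 1.9 TPM in PB2, and Cd2bp2 at 14.6 and 36.2 TPM, for a log2 ratio of 1.25. Snrnp40, a further U5 protein, was at 38.5 and 40.7 TPM.

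U4/U6 proteins also differed from each other. Prpf3 was at 22.0 TPM in the zygote against 10.9 TPM in PB2, for a log2 ratio of -0.95, and its binding partner Prpf4 at 2.9 and 4.1 TPM, a log2 ratio of 0.39. Prpf31, which binds the U4 RNA and is mutated in retinitis pigmentosa, was at 4.2 TPM in the zygote against 6.4 TPM in PB2. Snrnp27, by far the most abundant transcript here, was at 588 TPM in the zygote against 446 TPM in PB2, for a log2 ratio of -0.40. These levels cover a wide range, 267-fold in the zygote and 144-fold in PB2 over all 13 genes.

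The PRP38 proteins enter with the tri-snRNP and are needed for activation. Prpf38a was at 79.1 TPM in the zygote against 32.7 TPM in PB2, for a log2 ratio of -1.25. Prpf38b, its paralogue, was at 29.2 TPM in the zygote against 65.7 TPM in PB2, for a log2 ratio of 1.14. The order of this pair was thus opposite in the 2 libraries. Neither transcript shares more than 0.136% of its length with another gene. Of the other factors, the kinase gene Prpf4b was at 18.8 and 29.1 TPM, the second-step factor gene Prpf18 at 20.7 and 30.1 TPM, and the ubiquitin ligase gene Prpf19 at 2.2 and 3.1 TPM, in the zygote and PB2 respectively.

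Only 2 members belong to the U11/U12 snRNP, which serves the rare class of minor introns. Snrnp25 was at 16.5 TPM in the zygote against 3.3 TPM in PB2, for a log2 ratio of -2.02 and the lowest after Prpf39. Snrnp48 was at 67.1 TPM in the zygote against 91.7 TPM in PB2, for a log2 ratio of 0.44. Both encode proteins specific to the U11 side of the particle, and they lay in opposite directions. Snrnp35, another such gene, was not analysed here.

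The LSm genes were lower in PB2 almost throughout. LSm proteins form rings like those of the Sm proteins, with LSm2 to LSm8 on the U6 RNA in the nucleus, and LSm1 in place of LSm8 in the cytoplasm, where the ring promotes decapping. Of 8 genes, 7 were lower in PB2, and the median log2 ratio was -0.74. Of the 8, 3 (37.5%) were zygote-high and 1 (12.5%) was PB2-high, beside 8.09% and 18.9% of all genes. Lsm7 was at 472 TPM in the zygote against 183 TPM in PB2, for a log2 ratio of -1.36. Lsm3 was at 70.1 TPM in the zygote against 32.0 TPM in PB2, for a log2 ratio of -1.11. Lsm5 had the same log2 ratio, with 105 TPM in the zygote against 48.1 TPM in PB2. Lsm5 and Lsm7 share stretches with other genes over 44.0% and 20.0% of their transcripts. Lsm2 and Lsm6 were lower by less, at 81.8 and 46.9 TPM in the zygote and 55.9 and 31.5 TPM in PB2.

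Lsm4 was the exception, with 6.6 TPM in the zygote against 14.8 TPM in PB2, for a log2 ratio of 1.06. Its transcript is the richest in G and C of the ring, at 59.4%. Of the pair that sets where the ring acts, the decay subunit Lsm1 was at 153 TPM in the zygote against 90.3 TPM in PB2, and the nuclear subunit Lsm8 at 9.9 and 5.6 TPM. Lsm1 exceeded Lsm8 15.5-fold in the zygote and 16.1-fold in PB2, so the excess of the cytoplasmic over the nuclear subunit at the mRNA level was alike in both. The 7 genes of the nuclear ring spanned 71.5-fold in the zygote and 32.6-fold in PB2.

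Taking the Sm and LSm genes as 1 group of 15, 13 were lower in PB2, with a median log2 ratio of -0.56, against 0.14 for the other 64 members. In that group 4 (26.7%) were zygote-high and 1 (6.67%) was PB2-high, and among the others 9 (14.1%) and 11 (17.2%). The shares of all genes compared were 8.09% and 18.9%. This grouping was set after the values had been seen. Sm and LSm transcripts are short, with a median of 1055 bases beside 2890 bases for the other members, and short transcripts were lower in PB2 over the whole table as well. Among transcripts under 1500 bases the median log2 ratio was -0.60 for 19 members and -0.27 for 1573 genes of all kinds. From 3000 bases on, it was 0.38 for 32 members and 0.34 for 5475 genes. With the length trend removed, the median was -0.35 for the Sm and LSm genes and -0.10 for the other members. Lsm3 at -0.67 and Lsm5 at -0.50 were then no longer zygote-high. Lsm7 at -1.16 and Snrpn at -1.31 stayed so, and Lsm1 at -1.06 became so. The part of length in these ratios was not tested.

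SR proteins have an RNA-binding domain and a tail of arginine and serine repeats, and help recruit U1 and U2AF to exons. Of 10 genes, 3 were PB2-high and 1 was zygote-high, beside 18.9% and 8.09% of all genes. The SR median log2 ratio was 0.79, beside 0.21 for all genes. Srsf4 was at 1.5 TPM in the zygote against 7.2 TPM in PB2, for a log2 ratio of 1.71. Over 65.4% of its transcript it matches the antisense gene Gm12992, so its reads cannot be separated without strand. Srsf9 was at 5.1 TPM in the zygote against 14.6 TPM in PB2, for a log2 ratio of 1.35, and Srsf6 at 2.4 and 6.7 TPM, a log2 ratio of 1.18. Neither shares any 50-base stretch with another gene. Srsf5 was at 101 TPM in the zygote against 48.3 TPM in PB2, for a log2 ratio of -1.05, with 27.8% of the transcript shared.

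Within the SR family the level went with the direction. Srsf3, which regulates splicing and mRNA export, was the highest in both libraries, at 121 TPM in the zygote against 102 TPM in PB2. Srsf7, its closest relative, was at 88.0 TPM in the zygote against 45.5 TPM in PB2, and Srsf10, a splicing repressor when dephosphorylated, at 51.1 and 41.8 TPM. With Srsf5 these are the 4 most abundant SR transcripts in the zygote, and all 4 were lower in PB2, although Srsf3 came to 0.09 with the GC trend removed. The other 6, all under 20 TPM in the zygote, were higher in PB2, among them Srsf1, the founding member, at 7.6 and 13.1 TPM, Srsf2 at 19.3 and 39.3 TPM, and Srsf11 at 8.2 and 15.8 TPM. As a result the span of the family was 80.9-fold in the zygote and 15.2-fold in PB2. Srsf12 was not analysed here.

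The hnRNP genes were mixed. Of 19 compared, 4 (21.1%) were PB2-high and 1 (5.26%) was zygote-high, beside 18.9% and 8.09% of all genes. The hnRNP median log2 ratio was 0.23, beside 0.21 for all genes. Hnrnpc, whose product packages nascent transcripts and binds uridine tracts, was the highest, at 630.4 TPM in the zygote against 380.1 TPM in PB2, for a log2 ratio of -0.73. Hnrnpk, which binds cytidine-rich RNA, was at 213 TPM in the zygote against 160.1 TPM in PB2. The 5 most abundant in the zygote, these 2 with Hnrnpa1, Hnrnpa3 and Hnrnpa2b1, were all lower in PB2. The next in zygote level, Hnrnpf and Hnrnpdl, were higher. Ranking by the zygote level favours genes that are lower in PB2. By PB2 level, Hnrnpf at 143 TPM and Hnrnpdl at 111 TPM ranked above Hnrnpa2b1 at 56.2 TPM and Hnrnpa3 at 46.0 TPM.

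The A and B group proteins often repress exons. Hnrnpa1 was at 353 TPM in the zygote against 265 TPM in PB2, for a log2 ratio of -0.41. Hnrnpa2b1 was at 107 TPM in the zygote against 56.2 TPM in PB2, for a log2 ratio of -0.92. Hnrnpa3 was at 113 TPM in the zygote against 46.0 TPM in PB2, for a log2 ratio of -1.28. With Hnrnpa0, at 8.5 and 5.4 TPM, all 4 of this group were lower in PB2. Hnrnpa1 and Hnrnpa3 have many processed copies, and 46.4% and 28.2% of their transcripts are shared with other genes.

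Hnrnpab, Hnrnpd and Hnrnpdl encode another related trio, with roles in mRNA stability as well as splicing. Hnrnpab was at 5.9 TPM in the zygote against 28.8 TPM in PB2. This log2 ratio of 2.11 was the highest of all members, 4.88 times as much in PB2 before adding 1 TPM. Hnrnpdl was at 64.8 TPM in the zygote against 111 TPM in PB2, for a log2 ratio of 0.76, and Hnrnpd at 5.8 and 7.0 TPM, a log2 ratio of 0.23. All 3 lay above 0, though Hnrnpd came to -0.09 with the length trend removed. Phykpl overlaps Hnrnpab on the opposite strand and shares 28.8% of its transcript, and reads of that stretch cannot be assigned without strand.

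The F and H group, which binds runs of guanosines, had log2 ratios above 0 in all 4 genes, though Hnrnph2, at 0.15, fell to -0.06 when centred on the median of all genes and to -0.20 with the length trend removed. Hnrnph1 was at 28.5 TPM in the zygote against 58.1 TPM in PB2, for a log2 ratio of 1.00, just past 2-fold. Hnrnpf was at 75.1 TPM in the zygote against 143 TPM in PB2, for a log2 ratio of 0.92, with stretches shared over 67.3% of its transcript. Hnrnph3 and Hnrnph2 were at 20.4 and 18.9 TPM in the zygote and 29.7 and 21.1 TPM in PB2. Of the 4, Hnrnph1 alone reached 2-fold.

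The L and U families each had 1 member past 2-fold. Hnrnpl, a repressor that binds CA repeats, was at 2.0 TPM in the zygote against 6.4 TPM in PB2, for a log2 ratio of 1.30, and its relative Hnrnpll, at 0.5 and 0.7 TPM, was below the limit for comparison. Hnrnpu, a nuclear scaffold protein, was at 16.0 TPM in the zygote against 17.5 TPM in PB2. Hnrnpul2 was at 23.3 and 20.7 TPM, and Hnrnpul1 at 1.5 and 4.2 TPM, a log2 ratio of 1.06. The gene past 2-fold was thus the lowest of the U family and the higher of the L pair. Hnrnpm was at 5.1 and 7.8 TPM, and Hnrnpr at 4.5 and 6.4 TPM.

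The tie between level and direction held over the members as a whole. Of 32 members with a mean of 50 TPM or more, 25 were lower in PB2 and the median log2 ratio was -0.43, beside 0.03 for 2424 genes of all kinds in that band. In the same band 9 members were zygote-high and 1 was PB2-high, beside 9.78% and 16.0% of those genes. For members from 10 to 50 TPM the median was 0.34, and below 10 TPM it was 0.39, beside 0.23 and 0.29 for all genes. The bands were set after the values had been seen.

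GC content moved with the ratio among the members, but less closely than over the table. The Spearman correlation of log2 ratio with transcript GC content was 0.27 over 79 members and 0.44 over 10606 genes, and with transcript length 0.38 and 0.17; these are descriptions across genes of the same 2 libraries. The members were cut into 4 groups by GC content. The 19 richest in G and C, 52.6% to 62.2%, had a median of 0.67, with 7 PB2-high and 3 zygote-high. Over all genes compared, at any GC content, the shares were 18.9% and 8.09%. From the lowest GC content up, the 3 other groups had medians of -0.11, -0.49 and 0.03.

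**Figure D4:**
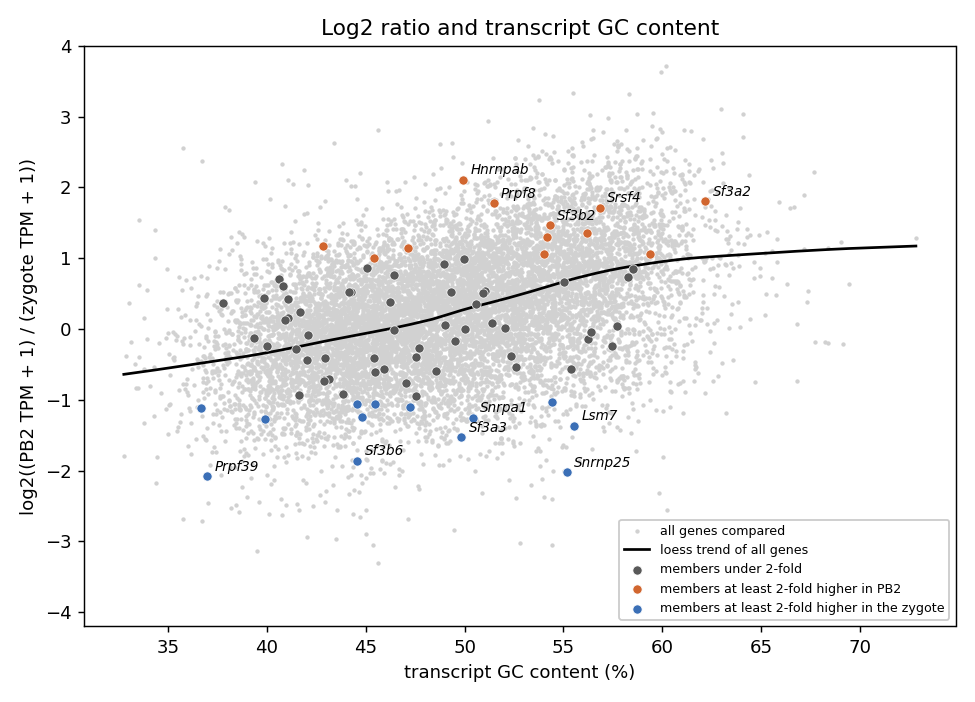
Log2 ratio of PB2 over zygote against transcript GC content for all genes compared (grey), with the loess trend (line), and for the members: dark grey under 2-fold, orange at least 2-fold higher in PB2, blue at least 2-fold higher in the zygote. Sf3a2 and Srsf4 lie 0.79 and 0.91 above the trend at the GC-rich end, Hnrnpab and Prpf8 1.84 and 1.40 above it, and Snrnp25 lies furthest below it, at -2.71.

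With the trend on GC content taken off, 6 members (Srsf1 among them) were PB2-high, beside 9.08% of 10606 genes, and 20 were 2-fold or more apart in either direction, beside 20.0%. Hnrnpab at 1.84, Prpf8 at 1.40, Srsf6 at 1.36, Prpf38b at 1.09 and Hnrnph1 at 1.04 kept a log2 ratio past 2-fold. The other 7 PB2-high members did not, as Sf3a2 and Sf3b2 came to 0.79 and 0.86, Srsf4 to 0.91, Hnrnpl to 0.71, Srsf9 to 0.60, Hnrnpul1 to 0.47 and Lsm4 to 0.13. On the zygote side Snrnp25 came to -2.71, Lsm7 to -2.07, Sf3a3 to -1.79, Sf3b6 to -1.78, U2af1 to -1.65, Prpf39 to -1.61 and Snrpa1 to -1.56. Srsf5 at -0.97, Hnrnpa3 at -0.94 and Lsm5 at -0.63 were no longer zygote-high. Hnrnpa0 at -1.27, Snrpa at -1.07, Prpf3 at -1.03 and Lsm2 at -1.01 became zygote-high. The contrast within SF3A and SF3B thus kept its direction but was smaller on the PB2 side. The part of amplification or of GC content in these ratios was not tested.

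Among the members, shared sequence also moved with the direction. Of the 44 members with under 5% of the transcript in stretches of 50 bases found in another gene, 9 were PB2-high and 4 zygote-high, with a median log2 ratio of 0.24. Of the 35 members with 5% or more, 3 and 9 were, with a median of -0.27. Over all genes compared 18.9% were PB2-high and 8.09% zygote-high, with a median of 0.21. Shared stretches were looked for in the members only, so genes of all kinds could not be cut in the same way. The 5% limit was set after the values had been seen, and the part of shared reads in the ratios was not tested. Prpf8, Srsf9, Srsf6, Snrnp25 and Sf3b6 share no such stretch, and no annotated exon of another gene overlaps them.

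Other splicing genes outside the symbol rule were counted from lists set by role. Of 115 genes listed, 109 had a row and 102 were compared, of which 19 (18.6%) were PB2-high and 5 (4.90%) zygote-high, beside 18.9% and 8.09% of all genes, with a median log2 ratio of 0.26. The shorter lists below stand beside the same shares of all genes. Among U2 and tri-snRNP associated proteins, 5 of 16 were PB2-high and 0 zygote-high. Puf60, a U2AF-like factor, was at 10.6 TPM in the zygote against 59.3 TPM in PB2, for a log2 ratio of 2.38. Cherp was at 2.7 and 16.0 TPM, and Sart3, the factor that reanneals U4 to U6, at 30.3 and 110.4 TPM. All 3 were above any U2 or tri-snRNP member in log2 ratio, with Sart3 at 1.83 just above Sf3a2 at 1.81. With the GC trend removed, Puf60 came to 1.60, Cherp to 1.37 and Sart3 to 1.08. The member Prpf8, at 1.40, then lay above Cherp and Sart3.

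Splicing regulators outside the SR and hnRNP families had the highest median of these lists among those of more than 5 genes, 0.74 over 23 genes, with 6 PB2-high and 1 zygote-high. Ptbp1, the polypyrimidine tract protein once named hnRNP I, was at 13.9 TPM in the zygote against 79.7 TPM in PB2, for a log2 ratio of 2.44. Pcbp1, also called hnRNP E1, was at 113 TPM in the zygote against 694 TPM in PB2, for a log2 ratio of 2.60. Both would be hnRNP genes by protein name, and both lay above Hnrnpab. With the GC trend removed, Pcbp1 came to 1.75 and Ptbp1 to 1.88, beside 1.84 for Hnrnpab. Taf15, which encodes an RNA-binding protein, was at 19.7 TPM in the zygote against 1.9 TPM in PB2, for a log2 ratio of -2.84.

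The minor spliceosome list gave 2 of 5 PB2-high. Pdcd7, a U11/U12 protein, was at 90.5 TPM in the zygote against 268 TPM in PB2, and Zrsr2, which recognises the 3′ splice site of minor introns, at 22.0 and 54.5 TPM. Both ran opposite to Snrnp25, as did Zcrb1 at 294.5 and 460.1 TPM. Zmat5, at 12.5 and 7.0 TPM, and Rnpc3, at 9.6 and 8.3 TPM, were lower in PB2, as Snrnp25 was. With the GC trend removed, Pdcd7 came to 0.72 and Zrsr2 to 1.47. Among the factors that load Sm rings onto RNA, 12 were compared, 2 were PB2-high and 1 was zygote-high. Prmt5, which methylates Sm proteins, was at 6.8 TPM in the zygote against 23.9 TPM in PB2, and Gemin6, of the SMN complex, at 123 and 38.1 TPM. Smn1 itself was at 360.3 TPM in the zygote against 307 TPM in PB2.

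Of the factors that control SR proteins or join them, Srrm2, a core scaffold of nuclear speckles, was at 23.1 TPM in the zygote against 91.6 TPM in PB2, for a log2 ratio of 1.94. Clk1, a kinase that phosphorylates SR proteins, was at 181 TPM in the zygote against 68.1 TPM in PB2, for a log2 ratio of -1.40. This list of 11 compared genes had 1 PB2-high and 2 zygote-high. In the list of activated-spliceosome proteins, Isy1, at 1.8 TPM in the zygote against 7.9 TPM in PB2, was the 1 PB2-high gene of 17 and Rbm22, at 108 against 47.0 TPM, the 1 zygote-high gene. Among 11 helicases and second-step factors Ddx46 alone was past 2-fold, with 83.1 TPM in the zygote against 177 TPM in PB2. In the exon junction complex, Rnps1 was at 171 and 382 TPM, and Magoh, at 3507 and 3352 TPM, was higher than any member.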

How the data were processed

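PB2s and zygotes were each pooled into 1 amplified polyA library. The TPM values were deposited by the authors in 1 table, to 1 decimal. Their processing notes name CASAVA, HISAT2 2.0.4, HTSeq 0.6.1p1 and DESeq2 1.18.1. How TPM were computed and whether strand was used are not given in the sources used here. The notes list a rabbit and a mouse genome build, while the table holds mouse genes. It sums to 92.7% (zygote) and 89.8% (PB2) of a full TPM column. A column was matched to its library by name.

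Here log2((PB2 + 1)/(zygote + 1)) was computed for genes at 1 TPM or more in either library, and 2-fold was the limit for counts. Transcript length, GC content, shared 50-base stretches, overlaps and sequences came from the longest protein-coding transcript of GENCODE M21 (GRCm38), found for 11221 of 11262 genes and all 80 members. Trends on GC content and length were removed by loess (statsmodels 0.14.6, span 0.3), a step tested on simulated data. Subcomplexes and lists were set by hand. Members and lists were chosen with earlier results of these data known. Genes named by rule were members 2-fold apart with 10 TPM in the higher library, the most abundant and the extreme members of each subcomplex, members under 1 TPM and sets of paralogues. Other genes were named after their values had been seen. The values of 1 member are not reported here. Alternatives varied the pseudocount, filter, threshold, scaling and trends.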

Additional observations from a re-analysis of the deposited data

How the results depend on the processing

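No paired analysis was possible because PB2 and zygote are 1 library each. Recomputed under the alternatives, 99 values of counts and medians stayed within the tolerance set for them and 11 moved. The count of members at least 2-fold higher in PB2, 12 as reported, was 7 when centred on the median of all genes and 6 with the GC trend removed, while the share of all genes went from 18.9% to 13.0% and 9.08%. At a 1.5-fold threshold PB2 was above the zygote for 21 members and below it for 22, beside 34.2% and 18.1% of all genes. The U1 median, 0.07, became -0.23 when 5 TPM was required in either library and -0.45 with the GC trend removed. The median at the branch point and 3′ splice site became -0.81 with the GC trend removed and -0.30 with the length trend removed. With the length trend removed, the tri-snRNP and PRP19 median was 0.037, the SR median 0.45 and the hnRNP median -0.088. Among the values of named genes, 410 stayed within 0.5 of the log2 ratio, 20 moved further, and none at 2-fold or more changed sign. The cause of these shifts was not tested. Depth is unknown for TPM, and levels under about 1 TPM rest on few steps of the 1 decimal kept.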
